A study of Mus musculus with 8 samples.

Results

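The platelet-derived growth factor (PDGF) family was measured as 6 genes of the 22873 in the deposited tables, found by their symbols: the ligand genes Pdgfa, Pdgfb, Pdgfc and Pdgfd and the receptor genes Pdgfra and Pdgfrb. All 6 were present in each library. Their levels are given in 10 cell types of the mouse iris and the attached ciliary body, and in 3 states of the pupil.

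PDGF ligands are secreted dimers that bind and dimerize receptor tyrosine kinases on neighbouring cells. PDGF-A and PDGF-C signal mainly through PDGFRα, PDGF-B binds both receptors, and PDGF-D acts mainly through PDGFRβ. PDGFRα is a familiar marker of fibroblasts and other mesenchymal cells, PDGFRβ is prominent in pericytes and fibroblasts, and PDGF-B from endothelium recruits pericytes to vessels. The iris holds a dilator muscle, a sphincter muscle, a pigmented epithelium (iris PE) and a stroma of fibroblasts, melanocytes and vessels.

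Nuclei were profiled by single nucleus RNA-seq in 8 libraries, each from a pool of 5 or 6 irises of 6 to 8 week old female wild type mice of an albino strain. Irises of the 3 untreated libraries received no drug. For the 3 constricted libraries the mice received 5% pilocarpine every hour for 6.5 hours and were kept in the light, and for the 2 dilated libraries they received 5% phenylephrine and 1% cyclopentolate on the same schedule and were kept in the dark. Drug and lighting cannot be told apart, and the pooled mice cannot be separated. The replicates are therefore pools, and p-values measure the spread between pools. The tables hold 34357 nuclei and 109565284 unique molecular identifiers (UMIs), with 1274 to 7321 nuclei and 5189437 to 25136427 UMIs in a library. Levels are counts per 1000000 (CPM), the UMIs of a gene per 1000000 UMIs summed over the nuclei of a cell type in a library, and the authors' cell type names are kept, with "dilator" for dilator muscle, CBE for ciliary body epithelium and CB for ciliary body.

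One pair of libraries stood apart in its cell barcodes. Dilated replicate 1 and untreated replicate 1 shared 63 barcodes, 59 of them with the same cell type in both, whereas any other pair shared at most 18. The barcodes found in more than 1 library number 195, and they make up 5.00% of the nuclei of untreated replicate 1 and 1.57% of those of dilated replicate 1. Without those nuclei edgeR called the same pairs of PDGF gene and cell type in each comparison of conditions, and the values are given below beside the results they touch.

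The start regions of the 3 ligand genes that fell together in the dilator are shown first, since the results turn on them. The RefSeq table of windows from 250 bases before to 50 after a gene's start (GRCm38.p6) had entries for 4 of the 6 genes, with 2 windows for Pdgfa. Pdgfb and Pdgfrb have no entry. Capitals mark matches to the GC box GGGCGG or its complement CCGCCC, or to the TATA motif TATAAA. The windows were also searched on both strands for TGACTCA and TGACGTCA, the sites of AP-1 and CREB family factors. None of the 4 motifs overlaps another in these windows.
Pdgfa, first window, chr5:138994232-138994531, minus strand: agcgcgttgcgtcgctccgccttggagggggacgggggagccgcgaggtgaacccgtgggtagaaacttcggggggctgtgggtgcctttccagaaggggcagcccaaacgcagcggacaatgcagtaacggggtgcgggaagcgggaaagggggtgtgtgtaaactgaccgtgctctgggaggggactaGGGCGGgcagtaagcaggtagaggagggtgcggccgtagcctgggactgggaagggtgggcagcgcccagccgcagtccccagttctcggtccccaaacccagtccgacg
Pdgfa, second window, chr5:138994895-138995194, minus strand: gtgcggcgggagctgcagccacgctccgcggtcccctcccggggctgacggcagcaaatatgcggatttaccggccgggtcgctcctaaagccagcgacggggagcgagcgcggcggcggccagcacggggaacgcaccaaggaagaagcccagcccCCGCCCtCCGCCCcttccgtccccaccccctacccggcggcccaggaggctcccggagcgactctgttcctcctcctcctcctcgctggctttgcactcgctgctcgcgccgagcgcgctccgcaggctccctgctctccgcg
Pdgfc, chr3:81036166-81036465, plus strand: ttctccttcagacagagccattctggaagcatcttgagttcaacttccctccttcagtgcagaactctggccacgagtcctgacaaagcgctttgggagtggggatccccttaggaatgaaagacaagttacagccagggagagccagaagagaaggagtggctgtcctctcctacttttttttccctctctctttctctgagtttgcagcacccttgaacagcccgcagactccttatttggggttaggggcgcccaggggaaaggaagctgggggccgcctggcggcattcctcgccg
Pdgfd, chr9:6168236-6168535, plus strand: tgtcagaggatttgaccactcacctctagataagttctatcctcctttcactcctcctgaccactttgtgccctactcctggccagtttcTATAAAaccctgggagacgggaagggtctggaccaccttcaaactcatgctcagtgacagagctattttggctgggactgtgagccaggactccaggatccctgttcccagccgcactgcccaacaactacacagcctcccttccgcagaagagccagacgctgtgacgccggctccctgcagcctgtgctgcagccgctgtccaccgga
The 2 Pdgfa windows are GC-rich, at 67.0% and 73.3% GC with 24 and 37 CpG dinucleotides, and each holds a GC box. The Pdgfd window holds 1 TATA motif, at position -160 from the start, and the Pdgfc window none of the 4 motifs. Both windows have 8 CpG dinucleotides. Over all 32817 windows of this length in the table, 35.6% hold the GC box, 13.6% TATAAA, 5.20% TGACTCA and 1.79% TGACGTCA. None of these motifs was common to the 4 windows, which says only that these letters are not shared there.

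The genes themselves (mm10, GENCODE vM21) lie at chr5:138976014-138997370 on the minus strand for Pdgfa, chr15:79995874-80014977 on the minus strand for Pdgfb, chr3:81036416-81214040 on the plus strand for Pdgfc, chr9:6168584-6378850 on the plus strand for Pdgfd and chr5:75152292-75198215 on the plus strand for Pdgfra, with Pdgfrb on chromosome 18. Both Pdgfa windows above lie inside this span of Pdgfa and not at its 5′ end (138997370). Introns were counted with exons. Pdgfa overlaps the antisense gene 6330403L08Rik, Pdgfc overlaps Gm16000, Pdgfd overlaps Ddi1, Pdgfb overlaps Gm41361 and Pdgfra overlaps Gm42802 and Gm42803, each on the other strand. Mir7213 lies within Pdgfb and Mir7025 within Pdgfra on the same strand. The sources used here do not state that counting used strand, so UMIs of these partners may not be told apart from those of the PDGF genes.

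The first question was which cell type carries each ligand and receptor in the untreated iris. Pdgfa was highest in the dilator, Pdgfc had its highest mean there but overlapped both sphincter types, Pdgfd was spread over muscle, epithelium and stroma 2, Pdgfb was highest in endothelial nuclei, and both receptors were highest in stroma 2. The clusters were made from the same counts, so these levels are a description without a test.

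Pdgfa stood at 647, 614 and 715 CPM in the dilator of the 3 untreated libraries, a mean of 659 ± 51.5 (SD, n = 3). The next level was that of sphincter 2, at 389 ± 47.3, and the ranges of these neighbours did not overlap, with a ratio of the means of 1.69. Sphincter 1 (129 ± 10.2) and iris PE (123 ± 21.7) followed and overlapped each other. The lowest Pdgfa levels were 34.4 ± 9.65 in stroma 1 and 27.5 ± 3.30 in stroma 2, so the cell type with the most receptor RNA had the least Pdgfa. By number of molecules, the dilator held 77.5% of all Pdgfa UMIs of the untreated irises and iris PE 11.9%.

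Pdgfc, whose product is secreted with a CUB domain that must be cut off, had a broader muscle pattern. It stood at 385, 243 and 231 CPM in the dilator (mean 286 ± 85.5), 221 ± 33.1 in sphincter 2 and 219 ± 20.9 in sphincter 1, and these ranges overlapped, so no order among the muscle types can be read. Leukocytes had 111 ± 81.5 and iris PE 64.4 ± 10.0, and stroma 1 had the lowest level, 5.67 ± 1.52. The dilator held 69.3% of the Pdgfc UMIs.

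Pdgfd, the other ligand made with a CUB domain, was the most widely detected. It was highest in sphincter 2 (529 ± 201) and iris PE (513 ± 41.7), whose ranges overlapped. CBE (332 ± 8.68), dilator (311 ± 36.1), endothelial nuclei (310 ± 108) and stroma 2 (293 ± 27.4) formed a group of similar level, and leukocytes were lowest, at 49.1 ± 29.7. Iris PE held 41.8% of the Pdgfd UMIs, the dilator 30.0% and stroma 2 14.6%. Both receptors also lay in stroma 2.

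Pdgfb, the ligand that endothelium uses towards pericytes, was scarce outside vessels and blood cells. It stood at 77.6, 146 and 161 CPM in endothelial nuclei (mean 128 ± 44.4) and at 53.3 ± 14.3 in leukocytes, a class that includes macrophages. The dilator had 10.0 ± 1.03, and CBE had 0 UMIs in all 3 libraries, which allows levels of up to 10.7, 5.67 and 6.24 CPM in them (3 UMIs each). Because dilator nuclei are many, they still held 49.8% of the Pdgfb UMIs and endothelial nuclei 18.9%. There were 273 endothelial nuclei in all 8 libraries and as few as 12 in one of them. Of these nuclei 73 had a Pdgfb UMI. A UMI of an endothelial marker (Pecam1, Cdh5, Flt1, Erg or Cldn5) was found in 270 of the 273, which is 98.9%. A UMI of a pericyte marker was found in 23 of the 273 nuclei, which is 8.42%.

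Pdgfra lay almost wholly in stroma 2. It stood there at 603, 1043 and 1071 CPM, a mean of 906 ± 262, and stroma 2 held 96.0% of the Pdgfra UMIs. Endothelial nuclei came next, at 51.5 ± 45.4, a ratio of 17.6. The dilator, which had the most Pdgfa, had 5.43 ± 2.07 CPM of Pdgfra. Leaving out nuclei called as doublets, which were 7.33% of the endothelial nuclei, raised the log2 ratio of stroma 2 to endothelial nuclei from 4.14 to 5.17.

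Pdgfrb was also highest in stroma 2, with endothelial nuclei next. It stood at 201, 308 and 277 CPM in stroma 2 (mean 262 ± 55.3) and 31.6 ± 31.6 in endothelial nuclei, a ratio of 8.28, and stroma 2 held 86.5% of its UMIs. The log2 ratio of 3.05 became 4.13 without doublets and 4.01 without untreated replicate 3, the library in which endothelial nuclei had most Pdgfrb. Pericyte markers were low in every cell type, and no pericyte cluster is among the 10 cell types. The 8 pericyte markers summed to 73.9 to 102 CPM in stroma 2 of the untreated libraries.

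Marker levels are given here for stroma 2 and the dilator. The clusters were made from the same counts, so these levels do not test the labels. In stroma 2 of untreated irises 4 stroma 2 markers (Tfap2b, Glis1, Col1a2 and Dcn) summed to 5942 to 6833 CPM, against 68.5 to 85.1 in the dilator. Dilator nuclei carried Adra1a, the alpha-1A adrenergic receptor through which the muscle contracts, at 479 ± 25.8 and Nos1 at 246 ± 26.1. Per kilobase of gene body Pdgfa in the dilator stood at 30.9 ± 2.41 CPM and Pdgfra in stroma 2 at 19.7 ± 5.71. Pdgfb in endothelial nuclei (6.70) and Pdgfrb in stroma 2 (6.56 ± 1.39) were lower on this scale, and Pdgfd in sphincter 2 (2.52) and Pdgfc in the dilator (1.61), both very long genes, were lowest. Per kilobase of exon, Pdgfa in the dilator had 211 CPM and Pdgfra in stroma 2 had 90.3.

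**Figure D1:**
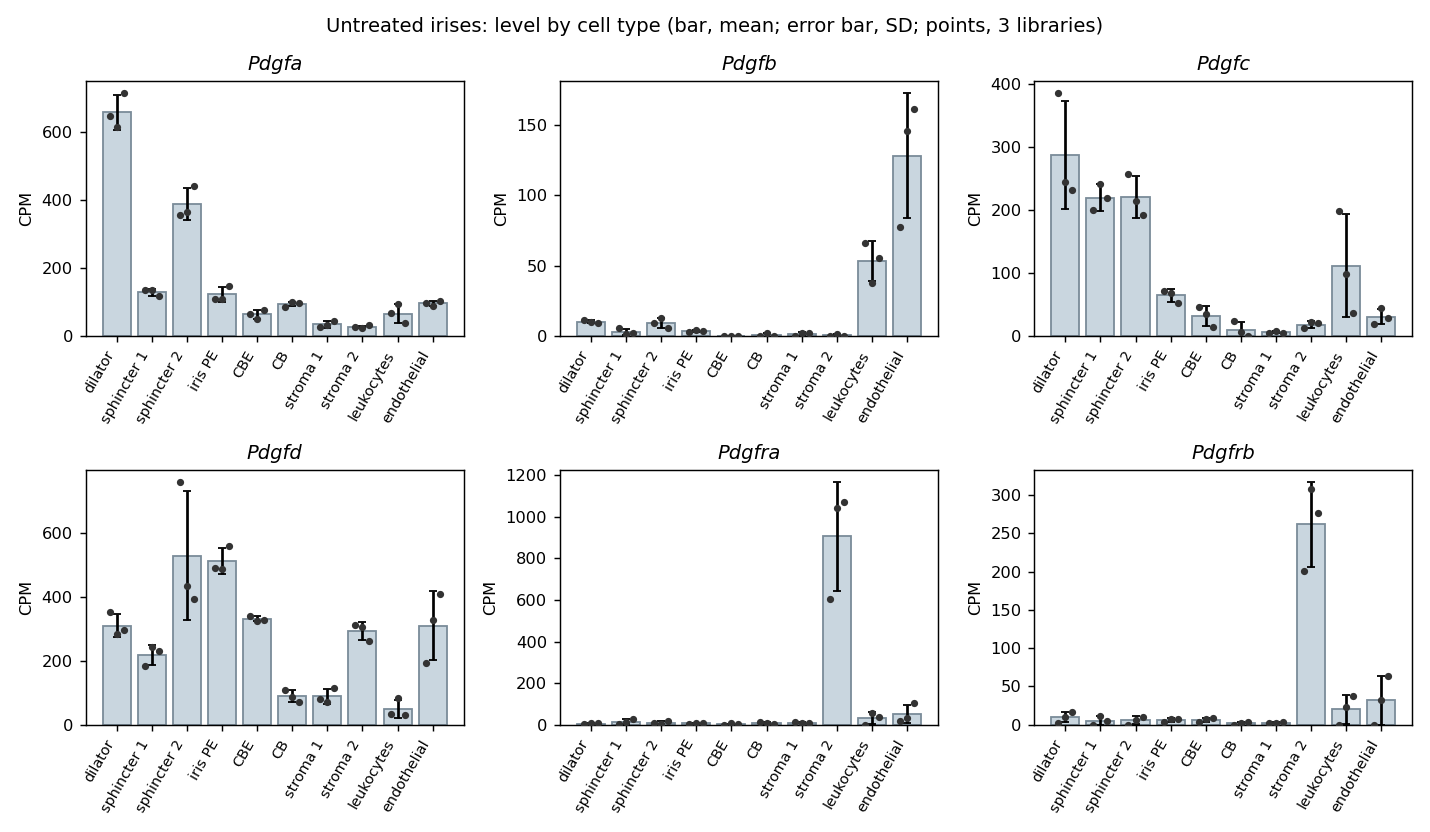
Level of each of the 6 genes in 10 cell types of untreated irises, in CPM on the vertical axis, with bars for the mean, error bars for the SD and points for the 3 libraries. The highest means are those of Pdgfa and Pdgfc in the dilator (659 and 286, with Pdgfc overlapping both sphincter types), Pdgfd in sphincter 2 and iris PE (529 and 513), Pdgfb in endothelial nuclei (128), and Pdgfra and Pdgfrb in stroma 2 (906 and 262).

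The second question was what sustained dilation did to these genes. In the dilator 3 ligand genes fell together: Pdgfa, Pdgfc and Pdgfd. In stroma 2 neither receptor gene passed the test. The test was edgeR's quasi-likelihood test on UMIs summed per library and cell type, in 1 fit of all 8 libraries for each cell type, with a call at an absolute log2 fold change over 0.6 and a Benjamini-Hochberg adjusted p under 0.05 over all genes of the cell type.

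Pdgfa in the dilator stood at 647, 614 and 715 CPM in the untreated libraries, 637, 460 and 680 in the constricted ones and 282 and 280 in the dilated ones. Both dilated libraries were below each of the other 6. The log2 fold change from untreated to dilated was -1.04 (SE 0.18, edgeR adjusted p = 0.0022). Without nuclei of shared barcodes it was -1.03 (edgeR adjusted p = 0.0023). The call was kept in all 14 alternative settings.

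Pdgfc in the dilator had 385, 243 and 231 CPM untreated, 303, 325 and 282 constricted, and 144 and 148 dilated. The dilated libraries again lay below all others. Its log2 fold change was -0.75 (SE 0.19, edgeR adjusted p = 0.0178), and -0.77 (edgeR adjusted p = 0.0172) without shared barcodes. This call rested on few libraries. The log2 fold change was -0.54 without untreated replicate 1, under the size limit, and the edgeR adjusted p was 0.12 without dilated replicate 1 and 0.055 without dilated replicate 2.

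Pdgfd in the dilator had 352, 283 and 297 CPM untreated, 448, 540 and 371 constricted, and 167 and 141 dilated. The 3 groups did not overlap, with constricted highest and dilated lowest. From untreated to dilated the log2 fold change was -0.82 (SE 0.17, edgeR adjusted p = 0.0058), and the value without shared barcodes was also -0.82 (edgeR adjusted p = 0.0054). Without dilated replicate 2 the edgeR adjusted p was 0.052. Where 1 dilated library is left, its spread is assumed to be that of the other groups.

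The dilator changed at many genes, and the ligands' calls are read against that. Of 15395 genes tested in the dilator 13.3% were called, and 6.14% were called lower. Of the 6 PDGF genes, which all passed the filter on low counts there, 3 were called, all lower. Pdgfb in the dilator had a log2 fold change of -0.27 (SE 0.29, edgeR adjusted p = 0.60). Scaling moved these genes and the background alike: with library totals in place of TMM factors the median log2 fold change of all genes moved from 0.02 to -0.16, and the share of calls that were lower from 46.0% to 67.8%. On that scale Pdgfa stood at -1.23, Pdgfc at -0.96 and Pdgfd at -1.01, all called.

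Marker levels moved with the ligands in the dilator. The 4 dilator markers (Adra1a, Nos1, Myh11 and Acta2) summed to 3177 to 3360 CPM in the untreated libraries, 3418 to 3719 in the constricted and 1998 to 2450 in the dilated ones. Adra1a, Nos1 and Myh11 had lower means after dilation, and Acta2 stood at 613 ± 296 untreated and 621 ± 347 dilated. The 3 markers of iris PE and CBE (Zic1, Tyr and Slc4a4) summed to 1913 to 1984 untreated and 789 to 939 dilated. Stroma 2 markers in dilator nuclei summed to 68.5 to 85.1 untreated and 36.3 to 61.4 dilated. All 11 markers of these lists were above 0 in each group, and the part of these changes in the ligands' fall was not tested. Over pooled nuclei the median dilator nucleus had 3410 UMIs untreated and 3758 dilated. By library the medians were 3926, 3379.5 and 3344.5 untreated and 3800 and 3660 dilated, so the groups overlapped in depth.

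The fall can also be described nucleus by nucleus. These shares come from the same UMIs and libraries as the calls, so they add no support to them. With each nucleus thinned to 1000 UMIs, Pdgfa was detected in 45.9% ± 2.11 of dilator nuclei in the untreated libraries (n = 3), 43.7% ± 7.58 in the constricted and 24.5% ± 0.548 in the dilated (n = 2). Unthinned, the share fell from 82.2% ± 2.66 to 61.4% ± 1.74. Pdgfc was detected in 22.3% ± 5.48 of thinned nuclei untreated and 12.4% ± 1.02 dilated, and Pdgfd in 22.4% ± 2.18 and 12.2% ± 2.04. For all 3 genes the dilated libraries lay below the untreated ones without overlap. The share of all dilator genes without such overlap is not given here. The exact permutation p over libraries was 0.1 for Pdgfa and Pdgfd, the smallest that 2 against 3 libraries allow, and 0.2 for Pdgfc. All are 1.0 after Benjamini-Hochberg adjustment over 120 such comparisons, so the shares cannot pass a test in this design. Without nuclei of shared barcodes, thinned anew, the shares were 45.9% untreated and 22.8% dilated for Pdgfa, 21.7% and 12.1% for Pdgfc and 21.6% and 12.8% for Pdgfd, again without overlap. As a background level, Pdgfa was detected in 2.64% of thinned stroma 2 nuclei, at a median of 2425 UMIs a nucleus.

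Dilator nuclei without any of the 3 ligands were more frequent in the dilated libraries. The 3 are the genes called lower on these same UMIs, so these shares restate that fall and add no support to it. At 1000 UMIs, nuclei with none of Pdgfa, Pdgfc and Pdgfd made up 31.8%, 36.9% and 33.7% of dilator nuclei in the untreated libraries, 29.3%, 34.7% and 30.9% in the constricted and 57.1% and 60.2% in the dilated. Without shared barcodes the untreated libraries had 33.8% to 37.0% and the dilated ones 59.2% and 60.6%. Nuclei with all 3 were rare, at 1.84% to 3.0% untreated and 0.429% to 0.690% dilated. Within libraries, Pdgfc was detected in 22.3% ± 6.02 of the nuclei with Pdgfa and 18.3% ± 4.96 of those without, higher in 8 of 8 libraries. Pdgfd was detected in 25.3% ± 9.45 and 21.6% ± 7.70, higher in 7 of 8. Between Pdgfc and Pdgfd there was little relation. Pdgfd was detected in 23.5% ± 9.60 of the nuclei with Pdgfc and 23.0% ± 8.14 of those without, higher in 5 of 8. These pairs come from the same nuclei and are given as a description.

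In the other 9 cell types no PDGF gene was called after dilation. Over all cell types 34 of the 60 pairs of gene and cell type passed the filter. Of these, 7 had an unadjusted p under 0.05, of which 3 were the dilator calls. The share of all genes under that unadjusted limit is not given here. Pdgfa in iris PE had 110, 110 and 148 CPM untreated and 74.9 and 82.9 dilated, with a log2 fold change of -0.61 (SE 0.25, edgeR adjusted p = 0.46). Pdgfa in sphincter 2 had 357, 366 and 443 untreated and 319 and 221 dilated (-0.48, SE 0.23, edgeR adjusted p = 0.34). Both were lower in each dilated library than in any untreated one, without passing the test, and 0.595% of genes were called in iris PE and 2.87% in sphincter 2. The share of genes called was 1.95% in sphincter 1, 1.17% in stroma 1, 1.32% in leukocytes, 0.0665% in CB, 0.0122% in CBE and 0.0% in endothelial nuclei. Pdgfd in sphincter 2 had 760, 435 and 393 untreated and 337 and 194 dilated (-0.84, SE 0.27, edgeR adjusted p = 0.089). This value lay near the limits of a call. It passed without the filter on low counts (-0.87, edgeR adjusted p = 0.030), with the library number series as a term (-0.99, edgeR adjusted p = 0.0014) and without dilated replicate 1 (-1.20, edgeR adjusted p = 0.041), and it was -0.54 without dilated replicate 2 (edgeR adjusted p = 0.62). Without shared barcodes Pdgfd in sphincter 2 stood at -0.81 (edgeR adjusted p = 0.11) and Pdgfa in iris PE at -0.62 (edgeR adjusted p = 0.47).

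In stroma 2 the differences of the receptors were within the spread between libraries. Pdgfra had 603, 1043 and 1071 CPM untreated, 665, 768 and 863 constricted, and 569 and 1085 dilated, so that each group spanned much of the range of the others. Its log2 fold change from untreated to dilated was -0.09 (SE 0.31, edgeR adjusted p = 0.97; -0.10 without shared barcodes), and it was -0.69 without dilated replicate 2 and 0.34 without dilated replicate 1. Pdgfrb, at 201, 308 and 277 untreated and 307 and 262 dilated, had 0.15 (SE 0.21, edgeR adjusted p = 0.90; 0.13 without shared barcodes). At 1000 UMIs a nucleus Pdgfra was detected in 46.4% ± 10.6 of stroma 2 nuclei untreated and 44.6% ± 9.77 dilated, and Pdgfrb in 22.4% ± 5.25 and 23.6% ± 0.912. Thinned dilator nuclei, which should lack the receptor, had Pdgfra in 0.697%. Of 12788 genes tested in stroma 2, 1.73% were called.

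The ligand Pdgfd in stroma 2 had 311, 307 and 261 CPM untreated, 450, 258 and 256 constricted, and 708 and 276 dilated. Dilated replicate 1 was far above the rest and dilated replicate 2 lay among the untreated libraries. The log2 fold change was 0.78 (SE 0.31, edgeR adjusted p = 0.33), and 0.80 without shared barcodes. Without the filter on low counts it passed the test (edgeR adjusted p = 0.0033). Without dilated replicate 2 it was 1.27 (edgeR adjusted p = 0.029), which rests on dilated replicate 1 alone. Stroma 2 also had higher levels of the 5 endothelial markers in the dilated libraries, a sum of 632 to 811 CPM against 195 to 256 untreated, and their stroma 2 markers summed to 4786 to 5395 against 5942 to 6833. Cdh5 was below 1 CPM on average in each group, so these sums came from the other endothelial markers. The part of these levels in the values above was not tested.

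Whether the ligands' response was particular to the dilator was tested by the difference of the dilation effect between pairs of cell types, in joint edgeR fits with a term for each library. The effect on Pdgfa in the dilator was lower than that in iris PE, CB and stroma 1, that on Pdgfc lower than in iris PE, and that on Pdgfd lower than in sphincter 1, iris PE, CBE and stroma 2, at an edgeR adjusted p under 0.05. The Pdgfc difference did not pass with RLE factors (edgeR adjusted p = 0.057). Neither Pdgfa nor Pdgfd in the dilator passed against sphincter 2, the other muscle rich in both. Pdgfc passed neither there (-0.29, edgeR adjusted p = 0.75) nor against sphincter 1 (-0.40, edgeR adjusted p = 0.42). Against sphincter 1 Pdgfa did not pass either (-0.54, edgeR adjusted p = 0.29). The share of all genes that passed was 6.71% against sphincter 1, 2.1% against sphincter 2, 12.2% against iris PE, 4.18% against CBE, 3.06% against CB, 5.73% against stroma 1, 8.13% against stroma 2, 0.746% against leukocytes and 0.528% against endothelial nuclei.

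Pdgfd in stroma 2 also differed in its effect from sphincter 2, iris PE and stroma 1, the effect being more positive in stroma 2 in each case. Its dilated libraries in stroma 2 stood at 708 and 276 CPM, against 261 to 311 untreated, so only dilated replicate 1 was raised. The test of Pdgfd in the dilator against stroma 2 rests on the same stroma 2 values. The joint fits were not repeated without dilated replicate 1. The receptors passed in none of these tests by edgeR: the lowest adjusted p was 0.24, for Pdgfrb in stroma 2 against iris PE. Of 50 such tests of PDGF genes 11 passed, and the same 11 passed without shared barcodes. For stroma 2, the share of all genes that passed was 3.25% against sphincter 1, 1.33% against sphincter 2, 3.29% against iris PE, 0.977% against CBE, 0.691% against CB, 2.4% against stroma 1, 0.564% against leukocytes and 0.539% against endothelial nuclei.

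**Figure D2:**
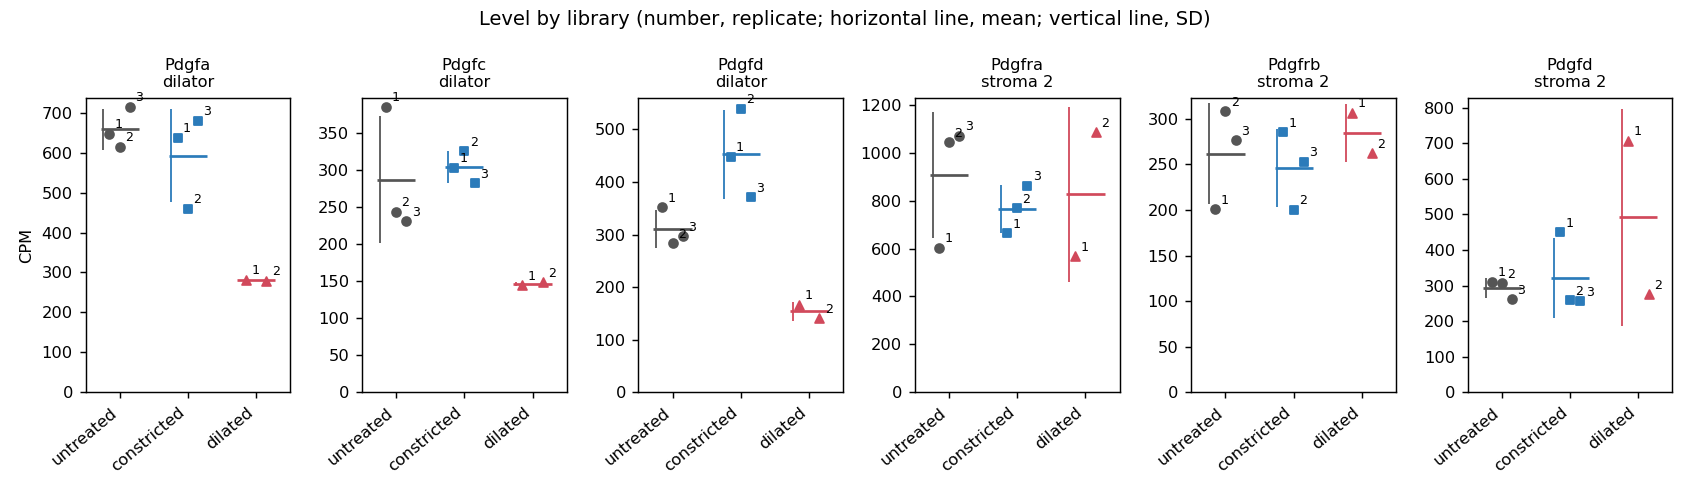
CPM of 6 pairs of gene and cell type in the 8 libraries, by condition, with numbers for replicates, horizontal lines for the mean and vertical lines for the SD. For Pdgfa, Pdgfc and Pdgfd in the dilator both dilated libraries lie below all others (282 and 280 for Pdgfa), whereas the groups overlap for Pdgfra, Pdgfrb and Pdgfd in stroma 2.

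Pdgfra in stroma 2 varied along the library numbers. The libraries were numbered 2 to 4 (untreated, constricted and dilated replicate 1), 13 (constricted replicate 2) and 15 to 18 (constricted replicate 3, dilated replicate 2, untreated replicates 2 and 3). What the numbers stand for is not stated, and this comparison was made after the pattern had been seen in the values. The 3 libraries numbered 2 to 4 had 569 to 665 CPM of Pdgfra and the 4 numbered 15 to 18 had 863 to 1085. With condition as a term, the log2 difference of the first from the last was -0.80 (SE 0.12, edgeR adjusted p = 0.010), past the same limits as above, which 4.41% of genes passed. Pdgfrb stood at -0.15 (SE 0.15, edgeR adjusted p = 0.59) and Pdgfd in stroma 2 at 0.65 (SE 0.19, edgeR adjusted p = 0.074). Without shared barcodes Pdgfra stood at -0.77 (edgeR adjusted p = 0.0093).

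The ciliary share of the dissection differed along the same numbers. CB and CBE nuclei made up 11.4%, 7.07% and 14.9% of the libraries numbered 2 to 4, 12.5% of library 13, and 2.86%, 5.83%, 5.02% and 3.54% of those numbered 15 to 18. Its part in the Pdgfra difference was not tested. In the dilator none of the 6 genes was called along these numbers by edgeR and none had an unadjusted p under 0.05, while 5.38% of genes were called. In the first run of numbers Pdgfa in the dilator stood at 282 in dilated replicate 1 and 647 in untreated replicate 1. These 2 libraries are also the pair with 63 shared barcodes. In the last run Pdgfa stood at 280 in dilated replicate 2 and at 614 and 715 in untreated replicates 2 and 3. These values are a description without a test.

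**Figure D3:**
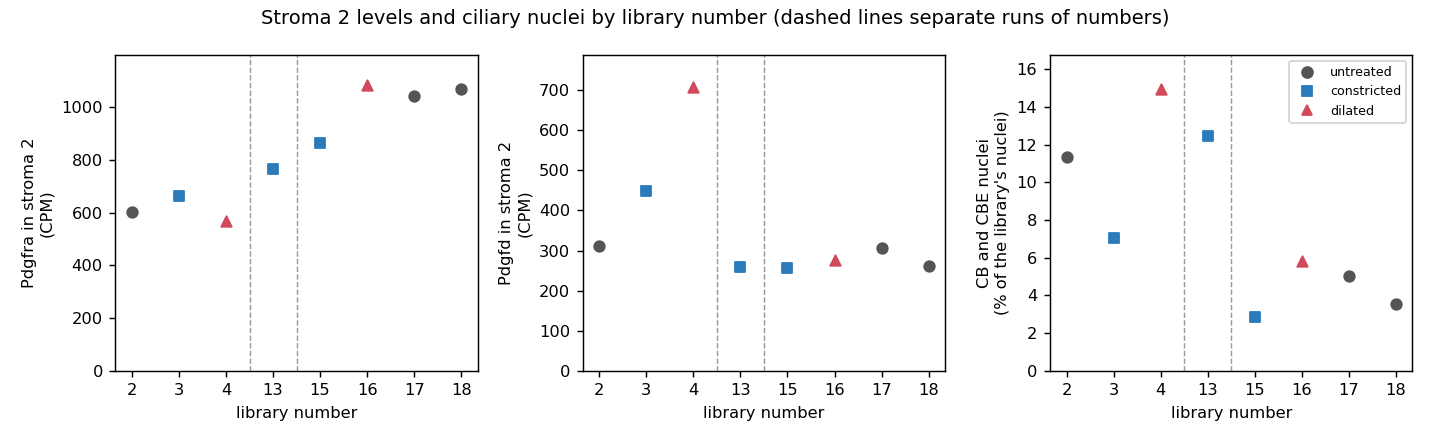
Pdgfra and Pdgfd in stroma 2 in CPM, and CB and CBE nuclei in percent of a library's nuclei, against the library number, with symbols for the condition and dashed lines between runs of numbers. Pdgfra lies at 569 to 665 in libraries 2 to 4 and at 863 to 1085 in libraries 15 to 18, whichever the condition.

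Within stroma 2, Pdgfd was detected less often in nuclei with Pdgfra than in those without. At 1000 UMIs, Pdgfd was detected in 19.4% ± 4.75 of the nuclei with Pdgfra and 26.0% ± 7.40 of those without, lower in 8 of 8 libraries. With Pdgfrb the order was the other way, at 25.8% ± 9.52 of nuclei with Pdgfrb and 22.3% ± 5.87 of those without, higher in 7 of 8. The receptors were detected with little relation to each other. Pdgfrb was detected in 22.9% ± 3.13 of the nuclei with Pdgfra and 21.7% ± 4.25 of those without, higher in 6 of 8. Nuclei of a library share its preparation and depth, so these shares are descriptions.

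The third question was whether constriction moved the family. No PDGF gene was called in any cell type under edgeR, and DESeq2 also called none. Of the 34 pairs tested 3 had an unadjusted p under 0.05, all of them Pdgfd and all higher. The share of all genes under that unadjusted limit is not given here, so no response is read from this count. In sphincter 2 Pdgfd had 760, 435 and 393 CPM untreated and 945, 1032 and 658 constricted, which overlap. Its log2 fold change was 0.84 (SE 0.22, edgeR adjusted p = 0.18). Without untreated replicate 1, the highest of its group, the value was 1.09 (edgeR adjusted p = 0.034). Without shared barcodes it was 0.84 (edgeR adjusted p = 0.21). In sphincter 1, also part of the muscle that pilocarpine contracts, Pdgfd stood at 0.25 (SE 0.26, edgeR adjusted p = 0.95). In CBE, Pdgfd had 342, 325 and 329 untreated and 578, 521 and 409 constricted, without overlap (0.65, SE 0.20, edgeR adjusted p = 0.36), and in the dilator it had 0.57 (SE 0.14, edgeR adjusted p = 0.91). Few genes of any kind were called with constriction: 0.0897% in sphincter 2, 0.0156% in stroma 2, 0.00708% in iris PE, 0.0065% in the dilator and 0.0% in the other cell types, CBE included. In the cell types with 0.0% under edgeR, DESeq2 called 0 to 15 genes.

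**Figure D4:**
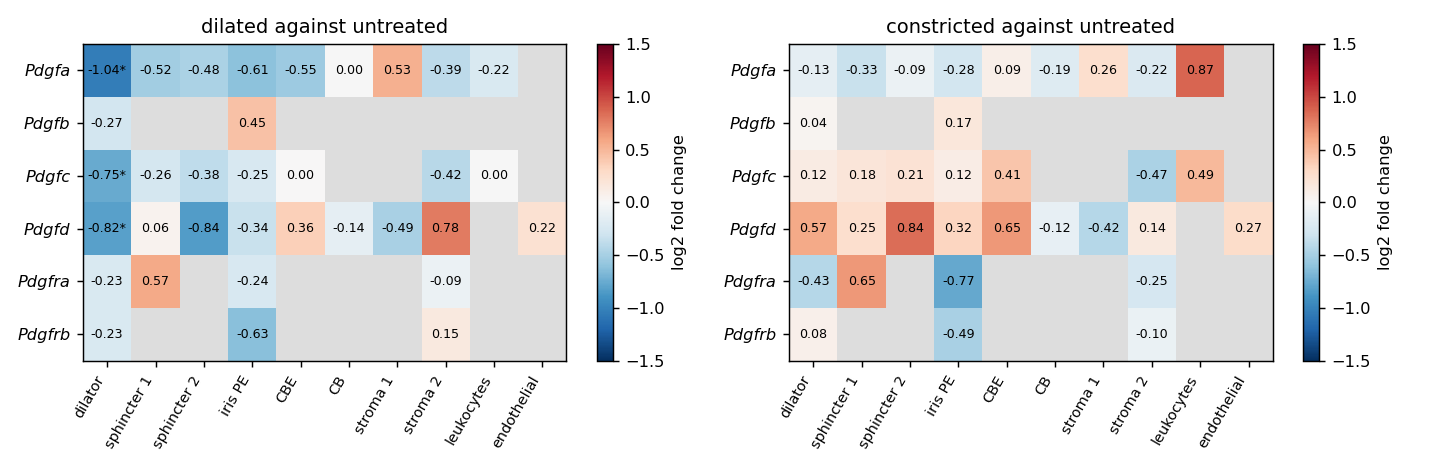
Log2 fold changes of the 6 genes (vertical axis) in 10 cell types (horizontal axis), dilated against untreated on the left and constricted against untreated on the right, with colour from -1.5 to 1.5, grey for pairs below the filter on low counts and an asterisk for calls. The 3 asterisks stand at Pdgfa (-1.04), Pdgfc (-0.75) and Pdgfd (-0.82) in the dilator after dilation.

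The treated groups were also compared with each other, a comparison that shares its libraries with both above. Pdgfd differed most. In sphincter 2 it was lower in dilated (337 and 194 CPM) than in constricted irises (945, 1032 and 658) by a log2 fold change of -1.68 (SE 0.27, edgeR adjusted p = 0.00031), and in the dilator by -1.39 (edgeR adjusted p = 0.00029). Pdgfa and Pdgfc in the dilator stood at -0.91 (edgeR adjusted p = 0.0058) and -0.88 (edgeR adjusted p = 0.0093). Without shared barcodes all 4 were called, with edgeR adjusted p from 0.00028 to 0.0098. These 4 pairs were the calls among 34 tested, and all were lower in dilated irises, as were 4.87% of all genes in the dilator and 1.48% in sphincter 2 (10.5% and 2.45% in either direction). In the other cell types 3.7% of genes were called in sphincter 1, 0.672% in iris PE, 0.532% in stroma 2, 0.438% in stroma 1, 0.122% in CBE, 0.0931% in CB, 0.0661% in leukocytes and 0.0% in endothelial nuclei. Without dilated replicate 1 the edgeR adjusted p was 0.050 for Pdgfa, just past the limit, and 0.082 for Pdgfc.

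The proteins that process PDGF chains or carry the receptors' signal were taken as a list of 50 genes, of 43 signalling genes and 7 proteases. In the dilator 49 were tested, and after dilation 5 were called higher and 2 lower. That is 14.3% of the list against 13.3% of all genes, and the median log2 fold change was 0.10 against 0.02. The list as a whole thus had about the share of calls of any gene, while a few members moved far.

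Plat, tissue plasminogen activator, which cuts the CUB domain off PDGF-C, had 45.5, 39.3 and 44.3 CPM untreated, 52.3, 51.4 and 53.8 constricted, and 319 and 421 dilated. The dilated libraries were far above all others, with a log2 fold change of 3.31 (SE 0.17, edgeR adjusted p = 4.6e-07). In iris PE Plat also rose, by 1.79 on the log2 scale (SE 0.26, edgeR adjusted p = 0.0066), while in stroma 2 it stood at -0.26 (SE 0.44, edgeR adjusted p = 0.91). Among the proprotein convertases, which trim PDGF-A and PDGF-B inside the cell, Pcsk5 fell in the dilator from 120, 116 and 115 to 53.3 and 44.3 (-1.08, edgeR adjusted p = 0.0011). Furin rose there from 32.4, 23.8 and 22.5 to 42.6 and 35.7 (0.81, edgeR adjusted p = 0.0072). Pcsk5 also fell in sphincter 2, by 1.28 on the log2 scale after dilation (SE 0.28, edgeR adjusted p = 0.0078) and by 1.31 after constriction (SE 0.26, edgeR adjusted p = 0.021). It was the only gene of the list that edgeR called with constriction in any cell type. DESeq2 called no list gene in sphincter 2 with constriction, and it called Pcsk5 in sphincter 1, where the edgeR value was -1.19 (edgeR adjusted p = 0.067).

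Among signalling genes, Nck2, an adaptor that binds activated receptor kinases, fell in the dilator from 228, 189 and 207 CPM to 97.9 and 83.8 (-1.0, SE 0.13, edgeR adjusted p = 0.00039). Ptpn1, a tyrosine phosphatase that acts on receptor kinases, rose from 56.1, 52.9 and 52.5 to 91.4 and 90.6 (0.95, SE 0.14, edgeR adjusted p = 0.00098). Stat3, a transcription factor downstream of many receptors, rose from 254, 199 and 229 to 359 and 501 (1.13, SE 0.18, edgeR adjusted p = 0.0011). Akt1, a kinase downstream of PI3-kinase, rose from 28.7, 27.7 and 30.4 to 47.6 and 36.3 (0.71, SE 0.17, edgeR adjusted p = 0.015). In these 4 genes the dilated libraries did not overlap the untreated ones. The genes were picked by the test on these same libraries, so this adds no support to it. Plat, Pcsk5, Nck2, Ptpn1 and Stat3 were called under all 14 alternatives, and without shared barcodes all 7 genes were called. Furin was not called without dilated replicate 1 (0.75, edgeR adjusted p = 0.058) or untreated replicate 3 (0.72, edgeR adjusted p = 0.058), and Akt1 not without dilated replicate 1 (0.58, edgeR adjusted p = 0.13) or untreated replicate 2 (0.70, edgeR adjusted p = 0.072) or with library totals (0.54, edgeR adjusted p = 0.062).

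In stroma 2, where the receptors lie, 0 of 48 tested list genes were called by edgeR after dilation (1.73% of all genes there). At so low a share, this count does not set the list apart from other genes. In stroma 2, 5 list genes had an unadjusted p under 0.05, a limit for which no share of all genes is given here. DESeq2 called 1, Sparc, a matrix protein that binds PDGF. Without shared barcodes edgeR also called 1, again Sparc, just inside the limit. Elsewhere after dilation, 1 of 41 was called in sphincter 1 (1.95% of all genes there), 1 of 37 in sphincter 2 (2.87%), 1 of 49 in iris PE (0.595%) and 2 of 45 in stroma 1 (1.17%). Those calls were Sparc in sphincter 1 and stroma 1, Pcsk5 in sphincter 2, Plat in iris PE and the phosphatase gene Ptpn2 in stroma 1, the last of which DESeq2 did not call.

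**Figure D5:**
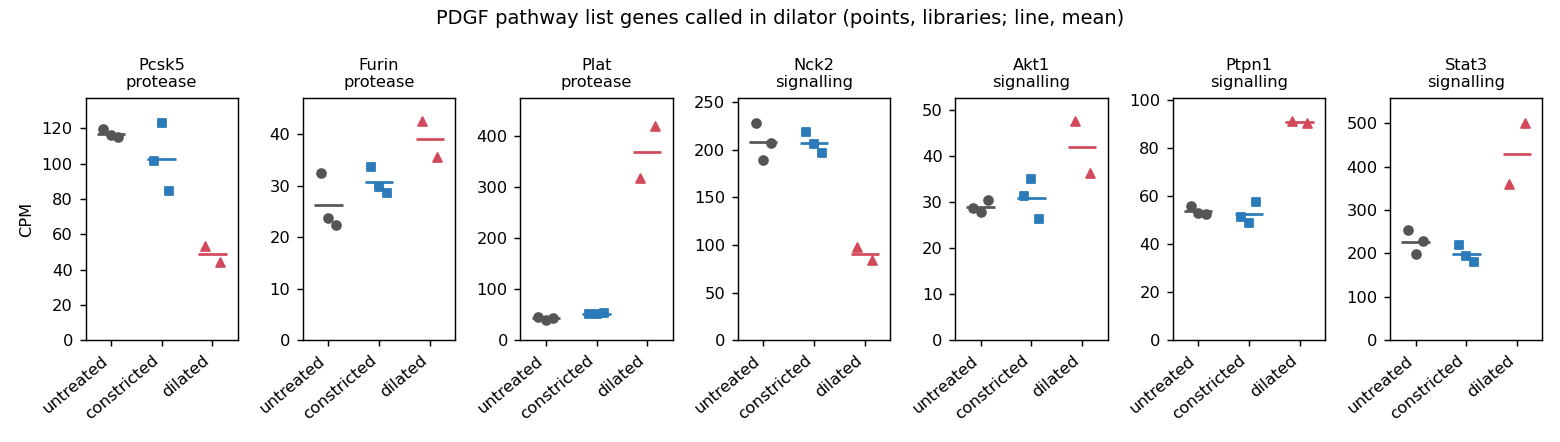
CPM in the dilator of the 7 genes of the PDGF pathway list called between dilated and untreated irises, by condition, with points for libraries and lines for means. Plat stands at 319 and 421 in the dilated libraries against 39.3 to 45.5 in the untreated ones, and Nck2 and Pcsk5 lie lower in the dilated libraries.

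Last, genes were ranked by how closely their untreated levels followed each PDGF gene over the 10 cell types, by Pearson's r of log2(CPM + 10) among 7519 genes. The points are means over the same 3 libraries, and r is a description. Nearest to Pdgfa were AC159282.1 (r = 0.989), Adcy8 (0.955), Shb (0.942), Pak7 (0.940) and Ccdc60 (0.929), and nearest to Pdgfra were Rerg, Dcn and Lypd1 (each 0.989), Tbx3os1 (0.988) and Sorcs3 (0.987). Pdgfrb had Lum (0.986), Rerg (0.984) and Sorcs3 (0.980), of which Rerg and Sorcs3 are shared with Pdgfra. Lum and Dcn encode the matrix proteoglycans lumican and decorin. Pdgfb had Coro2a (0.987), Ocel1 (0.969) and Mctp1 (0.967), Pdgfc had Gm16000 (0.982), Pi4k2a (0.934) and Pdk1 (0.930), and Pdgfd had Eef1g (0.908), Anapc5 (0.898) and Letm2 (0.895). Gm16000 is the antisense neighbour inside Pdgfc. AC159282.1 was not found in the GENCODE release used here, so its position relative to Pdgfa was not determined.

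Of the 5 genes nearest to Pdgfa over cell types, AC159282.1, Shb and Pak7 fell with it in the dilator after dilation, and Adcy8 rose. No value is given here for Ccdc60. Of all genes tested in the dilator 13.3% were called, and 6.14% were called lower. In the dilator AC159282.1 had 449, 347 and 362 CPM untreated and 112 and 80.0 dilated, a log2 fold change of -1.82 (edgeR adjusted p = 0.0003). Shb, an adaptor of receptor kinases that binds PDGF receptors, and the kinase gene Pak7 also fell, with -0.65 (edgeR adjusted p = 0.025) and -0.76 (edgeR adjusted p = 0.028), whereas the adenylyl cyclase gene Adcy8 rose by 0.90 on the log2 scale (edgeR adjusted p = 0.0033). The antisense gene that overlaps Pdgfa, 6330403L08Rik, singled out after its values were seen, had 10.6, 10.6 and 9.81 untreated and 4.74 and 4.61 dilated (-0.96, edgeR adjusted p = 0.026). Gm16000 stood at -0.38 (edgeR adjusted p = 0.27).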

How the data were processed

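The authors prepared nuclei with the 10x Chromium v3 3′ kit, aligned reads to exons and introns of mm10 with Cell Ranger 3.1.0 and named clusters made with Seurat. Their deposited tables give raw UMI counts, whole numbers for each gene in each nucleus. The deposited tables of nuclei give the percent of mitochondrial transcripts, on which the authors filtered at 1%, and the cell type. Their limits of 500 and 6000 match genes detected.

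UMIs were summed per library and the authors' cell type. edgeR 4.0.16 (R 4.3.3; TMM, filterByExpr, glmQLFit and glmQLFTest, two-sided) was fitted per cell type to all 8 libraries, and in joint fits of 2 cell types with a term per library. Standard errors come from the fold change and its F value. Calls need an absolute log2 fold change over 0.6 and a Benjamini-Hochberg adjusted p under 0.05. Shares of nuclei used thinning to 1000 or 2000 UMIs, which at 1000 left out 26, 5 and 3 dilator and 119, 26 and 42 stroma 2 nuclei of the untreated, constricted and dilated libraries, and an exact permutation test over libraries. Doublets (359 nuclei, 1.04%) were called by Scrublet through scanpy 1.11.5 and left out only as an alternative. Intervals and limits cover counting error only. The tests were checked on simulated counts. DESeq2 1.42.0, limma 3.58.1, Python 3.11.15, numpy 2.4.6, scipy 1.17.1, pandas 2.3.3 and matplotlib 3.10.9 were also used. Of the 22873 genes, 22511 were found by name in GENCODE vM21, used for positions, and start regions were taken from RefSeq.

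The 6 genes, the pathway and marker lists and the tests were chosen with earlier results of these data known. One gene of the stroma 2 marker list is not reported here and was left out of its sums. Genes are named if they are among the 6, if they are on the pathway list and called in dilator or stroma 2 with dilation, or if they are among the 5 (Pdgfa, Pdgfra) or 3 (others) of most similar level over cell types with at least 50 CPM in a cell type. Calls of the pathway list in other cell types (Sparc, Ptpn2), genes that overlap a PDGF gene, such as 6330403L08Rik and Ddi1, and the DESeq2 calls named are named besides, picked once their values were known. The 5 processing batches and 2 sequencing runs of the study are not assigned to libraries in the sources used here. Alternatives were RLE factors, library totals, DESeq2, no filter, a replicate block, the series of library numbers, only the conditions compared, no doublets, no shared barcodes and leaving out each library. Thinned shares, joint fits and library numbers were also recomputed without shared barcodes. Library totals, shared barcodes and the comparison of library numbers were added after seeing the data.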

Additional observations from a re-analysis of the deposited data

Results flagged for a closer look

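Effects of dilation that differ between cell types were tested in joint fits of each pair, with a term for each library (edgeR quasi-likelihood test, Benjamini-Hochberg adjusted over all genes of the joint fit). Of 50 tests of PDGF genes in which dilator or stroma 2 was set against another cell type, 11 had an edgeR adjusted p under 0.05. All values are differences of log2 fold changes.

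The effect on Pdgfa in the dilator minus that in iris PE was -0.46 (edgeR adjusted p = 0.021), minus that in CB -1.09 (edgeR adjusted p = 0.0048) and minus that in stroma 1 -1.56 (edgeR adjusted p = 0.00011). By its own fit Pdgfa stood at -0.005 in CB and 0.53 in stroma 1, neither called. For Pdgfc the difference of dilator from iris PE was -0.48 (edgeR adjusted p = 0.043), and with RLE factors that p was 0.057. For Pdgfd the dilator differed from iris PE by -0.50 (edgeR adjusted p = 0.0052) and from sphincter 1, where Pdgfd itself stood at 0.06, by -0.81 (edgeR adjusted p = 0.018). It differed from CBE by -1.19 (edgeR adjusted p = 3.2e-06) and from stroma 2 by -1.51 (edgeR adjusted p = 0.0045). The same rule was passed by 12.2% of all genes for iris PE, 3.06% for CB, 5.73% for stroma 1, 6.71% for sphincter 1, 4.18% for CBE and 8.13% for stroma 2. Against sphincter 2, the other muscle with much Pdgfa, the differences did not pass: -0.59 for Pdgfa (edgeR adjusted p = 0.10) and -0.05 for Pdgfd. That of Pdgfc did not pass either (-0.29, edgeR adjusted p = 0.75).

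In stroma 2 the effect on Pdgfd was more positive than in sphincter 2 by 1.51 (edgeR adjusted p = 0.00023), than in iris PE by 1.03 (edgeR adjusted p = 0.031) and than in stroma 1 by 1.33 (edgeR adjusted p = 0.0052), where 1.33%, 3.29% and 2.4% of all genes passed. Within stroma 2 itself Pdgfd was not called, and its 2 dilated libraries stood at 708 and 276 CPM. Tests that set dilator or stroma 2 against several cell types share those nuclei and are not independent.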

How the results depend on the processing

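Comparisons rest on 2 dilated and 3 libraries of each other group, and endothelial levels on as few as 12 nuclei. After dilation the dilator log2 fold changes ranged, with single libraries left out, from -1.11 to -0.96 for Pdgfa, -0.87 to -0.54 for Pdgfc and -0.87 to -0.77 for Pdgfd. The PDGF genes called lower there numbered 1 to 3, with only Pdgfa without dilated replicate 2. All genes called in the dilator numbered 2054, and 1086 to 1989 with a library left out (1143 without untreated replicate 2, 1203 without untreated replicate 3, 1086 without dilated replicate 2). The series of library numbers as a term gave 3138 genes and 12 of the pathway list, against 7. Without a filter on low counts 5 pairs of PDGF gene and cell type were called against 3, with Pdgfd in stroma 2 (edgeR adjusted p = 0.0033) and sphincter 2 added.

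With the replicate block the dilator values were -0.94 for Pdgfa, -0.82 for Pdgfc and -0.89 for Pdgfd, 2619 genes were called, and 1 pair was called with constriction against 0 (Pdgfd in sphincter 2, 0.81, edgeR adjusted p = 0.037). Leaving out single libraries gave 0 to 1 such pairs. Dilated against untreated, the block brought Pdgfd in sphincter 2 to -1.05 (edgeR adjusted p = 0.0075) and the series term to -0.99. Correlations of same-numbered libraries ran from -0.03 to 0.45 in the dilator, so the numbers are not shown to pair libraries.

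The sign of Pdgfra in stroma 2 after dilation (-0.09, and -0.69 to 0.34 with single libraries left out) turned with the replicate block (0.016), the series term (0.022) and without untreated replicate 2 (0.04), untreated replicate 3 (0.05) or dilated replicate 1 (0.34), and that of Pdgfrb (0.15, and -0.023 to 0.30 likewise) without untreated replicate 1. None of these passed the test. The log2 ratio of Pdgfa in dilator to sphincter 2 was 0.76, and 0.63 over all 8 libraries, while that of Pdgfra in stroma 2 to endothelial nuclei was 4.14, and 5.17 without doublets. Where not stated otherwise the cause was not tested. With log2(CPM + 1), the nearest genes shared were 4 of 5 for Pdgfa and 2 of 5 for Pdgfra. For dilated against constricted, splits of calls that were lower in the dilator were 46.5%, and 68.2% with library totals.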
